A study of Mus musculus with 6 samples.

Results

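Macrophages are the most abundant immune cells of the healthy heart, and 35 genes that mark them were followed here in the myocardium of mice with heart failure with preserved ejection fraction (HFpEF). The genes were taken by symbol from 54532 genes with deposited values, and all 35 were among the 14225 genes tested. The members form groups by known role. Of the 35, 22 are pan-macrophage genes, 9 mark resident macrophages (Lyve1, Timd4, Folr2, Cd163, Mrc1, Cbr2, F13a1, Stab1 and Vsig4), and 3 are linked to lipid uptake or injury (Trem2, Gpnmb and Lgals3). The last gene, Retnla, marks alternative activation and was kept apart.

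RNA came from the left ventricular myocardium of male C57BL/6 mice that were 6 to 8 weeks old at the start, with 1 library per mouse. The HFpEF group (n = 3) received for 12 weeks a high-fat diet with 60% of kcal from fat, together with 0.5 g/L L-NAME, which blocks nitric oxide synthase, in the drinking water. The Chow group (n = 3) received standard chow and regular water for the same time. Diet and L-NAME were always given together, so their parts cannot be told apart. Values are FPKM, that is, sequenced fragments relative to exon length in kilobases and to a library size. The library size implied by the values was below the recovered read total in every Chow library and above it in every HFpEF library. It was 14239712 against 15574915 reads in Chow replicate 1 and 19316914 against 15196287 reads in HFpEF replicate 3. The deposited values thus already carried a scaling between libraries, which the sources used here do not describe. Library totals recovered from them were 13076772 to 15574915 reads in Chow and 13461734 to 16027084 reads in HFpEF.

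Cardiac macrophages that carry Lyve1, Timd4 and Folr2 are seeded before birth and renew themselves in the tissue, while others descend from blood monocytes that enter through the receptor Ccr2. Both need the growth factor CSF1, which acts on the receptor CSF1R, and both owe much of their identity to the transcription factor PU.1, the product of Spi1. The cells clear debris and dying cells through scavenger receptors, Fc receptors and the receptor MERTK with its bridging ligand GAS6. After injury or in fatty tissue, macrophages can take on a state marked by Trem2, Gpnmb and Lgals3.

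PU.1 binds DNA at purine-rich sites around the letters GAGGAA, and the promoters of the members were searched for these letters on either strand. RefSeq promoters (GRCm38.p6, 250 bases before the start to 50 after) were at hand for 27 of the 35 members, as 31 promoters. GAGGAA stood in 17 of the 31 (54.8%), beside 28.3% of all 32851 promoters of the same length. The longer GAGGAAGT, which contains GAGGAA, stood in 4 of the 31 (12.9%), beside 3.2% of all promoters. By gene, 15 of the 27 members (55.6%) had a match to GAGGAA, beside 31.25% of all 27025 genes with an entry. This held for 8 of 15 pan-macrophage members and 5 of 8 resident members with an entry. The 4 promoters below all hold a match and belong to the cathepsin gene Ctss, to Trem2 and to the resident genes Cbr2 and Stab1. They do not stand for the members at large, as the promoters of Lgals3, Gas6, Lyz2 and Gpnmb held no match. Each runs 5′ to 3′ on the gene's strand over the 250 bases before the start and the first 6 bases of the transcript. Capitals mark letters that match GAGGAA or GAGGAAGT on either strand (TTCCTC and ACTTCCTC are their reverse complements), and a match is a description of letters, not evidence of binding.
Ctss, chr3:95526536-95526791, plus strand: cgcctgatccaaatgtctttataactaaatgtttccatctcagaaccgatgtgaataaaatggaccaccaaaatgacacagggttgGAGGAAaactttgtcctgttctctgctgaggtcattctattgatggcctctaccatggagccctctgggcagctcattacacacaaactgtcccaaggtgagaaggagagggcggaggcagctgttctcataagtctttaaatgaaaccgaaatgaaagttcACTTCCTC
Trem2, chr17:48346151-48346406, plus strand: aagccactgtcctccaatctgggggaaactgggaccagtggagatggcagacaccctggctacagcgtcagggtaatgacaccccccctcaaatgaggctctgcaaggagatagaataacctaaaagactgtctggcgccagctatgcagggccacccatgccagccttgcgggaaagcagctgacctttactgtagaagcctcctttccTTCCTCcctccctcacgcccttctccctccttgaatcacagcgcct
Cbr2, chr11:120732016-120732271, minus strand: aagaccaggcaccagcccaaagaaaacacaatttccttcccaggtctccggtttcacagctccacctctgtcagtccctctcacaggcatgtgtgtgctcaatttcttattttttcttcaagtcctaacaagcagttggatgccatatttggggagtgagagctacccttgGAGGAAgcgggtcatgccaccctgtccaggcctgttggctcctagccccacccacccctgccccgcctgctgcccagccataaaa
Stab1, chr14:31168636-31168891, minus strand: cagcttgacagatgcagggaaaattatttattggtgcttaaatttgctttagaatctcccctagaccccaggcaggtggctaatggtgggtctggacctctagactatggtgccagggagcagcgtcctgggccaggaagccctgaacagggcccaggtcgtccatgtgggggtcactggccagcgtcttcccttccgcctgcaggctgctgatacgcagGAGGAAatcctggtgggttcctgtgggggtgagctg
In Ctss, a match to the longer motif spans the start itself and a further match to GAGGAA lies 164 bases before it. The matches in Trem2, Stab1 and Cbr2 lie 40, 30 and 79 bases before the start.

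The libraries differed in more than their macrophage genes, and HFpEF replicate 3 stood apart from the rest. In that library 7.17% of recovered reads were mitochondrial, against 20.1% to 26.0% in the other 5. Its summed FPKM of 6 fibroblast markers was 4463, against 374 and 433 in HFpEF replicates 1 and 2 and 200 to 239 in Chow. The collagen genes Col1a1 and Col3a1 made up 2252 and 1810 FPKM of that sum. Without collagen the picture was milder, with Pdgfra at 11.3, 11.6 and 12.99 FPKM, Dcn at 177, 168 and 196 FPKM, Tcf21 at 9.44, 5.30 and 9.61 FPKM and Lum at 59.8, 42.6 and 182 FPKM in HFpEF replicates 1 to 3. Summed markers of atrial cardiomyocytes were 2305 and 3834 FPKM in HFpEF replicates 1 and 2 and 538 in Chow replicate 3, against 13.3 to 20.6 in the other 3 libraries, although the study's methods name the left ventricle as the tissue of all 6. Of 7 adipocyte markers, 6 were higher in every HFpEF library than in any Chow library (15.6% of all genes tested). Among them was Car3 at 7.82 to 34.1 FPKM in HFpEF and at most 0.0298 FPKM in Chow. The most abundant one, Fabp4, which endothelial cells also make, was lower at 60.5 to 69.8 FPKM in HFpEF against 84.3 to 94.8 FPKM in Chow, and the sums of the list overlapped (84.3 to 94.9 FPKM in Chow, 83.5 to 115 FPKM in HFpEF). Because of these values, a log2 fold change or median that HFpEF replicate 3 moved by more than 1.5 times is also given without that library, and the part of these cell mixtures in the macrophage results was not tested. In bulk RNA, more cells of a type and more RNA per cell cannot be told apart.

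Macrophages themselves were present in every heart. All 6 defining markers (Adgre1, Csf1r, Cd68, Fcgr1, Mertk and Lyz2), which are also members, had values above 0 in all 6 libraries. Their summed levels were 137 to 181 FPKM in Chow and 175, 226 and 621 FPKM in HFpEF replicates 1 to 3. Most of each sum was Lyz2, at 110 to 147 FPKM in Chow and 139, 179 and 534 FPKM in HFpEF. Of the 6 markers, 2 separated the groups, Csf1r and Cd68 (15.6% of all genes). Markers of the liver and its Kupffer cells summed to at most 0.674 FPKM, with Alb at 0 throughout. The 6 neutrophil markers, which matter because neutrophils also make Lyz2, summed to 0.858 to 4.13 FPKM in Chow and 1.37 to 4.29 FPKM in HFpEF, with Ly6g at 0 in all libraries. None separated the groups. Csf3r was 0.183 to 0.756 FPKM in Chow and 0.600, 0.949 and 2.54 FPKM in HFpEF replicates 1 to 3. S100a9 was highest in Chow replicate 2, at 2.61 FPKM. The part of neutrophils in the Lyz2 values was not tested.

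As a group the macrophage genes stood higher in HFpEF. Over the 35 members the log2 fold change had a median of 0.80, against -0.01 for all genes tested, and it was 0.42 without HFpEF replicate 3. No member passed limma's test at a Benjamini-Hochberg adjusted p under 0.05, a threshold that 0.0984% of all genes tested (14 genes) passed, and limma voom on recovered reads called none either. No member met the study's rule for differential expression, which adds a minimum log2 fold change of 2 in either direction and which 0.0562% of genes met. At an unadjusted p under 0.05, 12 of the 35 (34.3%) were higher in HFpEF, where 10.2% of all genes were. Under the same rule 0 members were lower, where 13.1% of all genes were. The 12 were Cbr2, Lgals3, Lyve1, Gas6, Stab1, Cd68, Gpnmb, Fcgr3, Cd163, Csf1r, Csf1 and Spi1. Their number depended on single libraries, being 6 without Chow replicate 2 (6.19% of all genes), 5 without Chow replicate 3 (6.54%) and 24 without HFpEF replicate 1 (11%).

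The groups did not overlap for 18 of the 35 members (51.4%), in which every HFpEF library lay above every Chow library, as it did for 15.6% of all genes tested. The reverse, every HFpEF library below every Chow library, held for 0 members and for 19.7% of all genes. HFpEF replicate 3 was the highest of the 6 libraries for 28 members (80.0%), against 30.5% of all genes. It led for all 22 pan-macrophage members and all 3 lipid or injury members, but for only 3 of the 9 resident members (Mrc1, F13a1 and Stab1). HFpEF replicate 1 lay above all Chow libraries for 21 members (31.9% of all genes), replicate 2 for 33 (32.3% of all genes) and replicate 3 for 32 (38.3% of all genes).

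**Figure D1:**
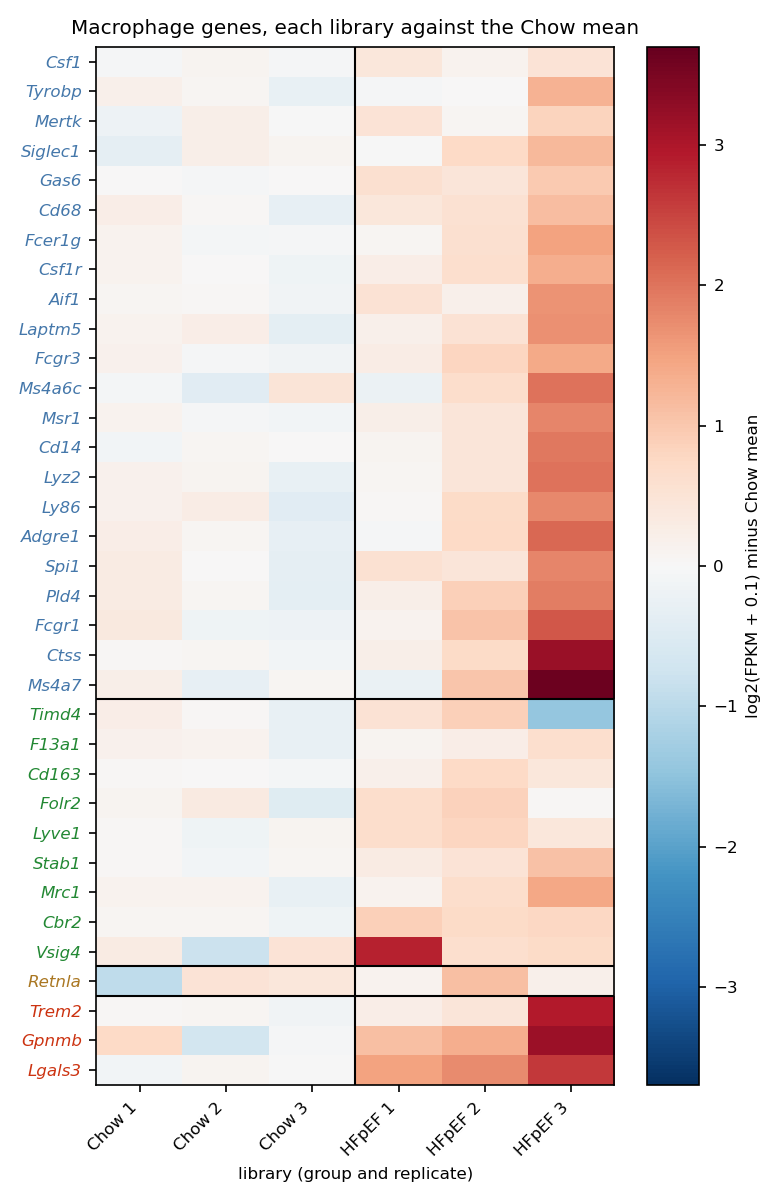
Heat map of the 35 genes (rows) in the 6 libraries (columns), as log2(FPKM + 0.1) minus the mean of the 3 Chow libraries, with gene names in blue for pan-macrophage, green for resident, brown for alternative activation and red for lipid or injury genes. The HFpEF columns are mostly red, most deeply in replicate 3 for pan-macrophage and lipid or injury genes, while of the resident genes only Mrc1, F13a1 and Stab1 are deepest there, Vsig4 is deepest in replicate 1 and Timd4 is blue in replicate 3.

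Without HFpEF replicate 3, 4 members (11.4%) passed the adjusted threshold, all higher in HFpEF, against 2.85% of all genes higher in that fit and 5.36% lower. In limma the log2 fold change was 1.61 for Lgals3 (adjusted p = 0.0102), 0.79 for Cbr2 (adjusted p = 0.0154), 0.52 for Gas6 (adjusted p = 0.0164) and 0.72 for Lyve1 (adjusted p = 0.0229). Lgals3 (ENSMUSG00000050335) lies on chromosome 14 of GRCm38 from 47367751 to 47386160, Cbr2 (ENSMUSG00000025150) on chromosome 11 from 120729489 to 120732114, Gas6 (ENSMUSG00000031451) on chromosome 8 from 13465374 to 13494490 and Lyve1 (ENSMUSG00000030787) on chromosome 7 from 110850607 to 110863239. Leaving out a library on account of its values is a choice made with those values known, so the 6-library fit stays the reference.

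The receptor for CSF1 and its ligand were both higher in every HFpEF heart than in any Chow heart. Csf1r, the tyrosine kinase on which macrophage survival depends, measured 16.4, 15.2 and 13.5 FPKM in Chow replicates 1 to 3 and 17.9, 23.2 and 38.0 FPKM in HFpEF replicates 1 to 3. Its log2 fold change was 0.74 (SE 0.27, adjusted p = 0.182, limma), and 0.44 without HFpEF replicate 3. Csf1, which stromal and endothelial cells also make, moved over a narrower range, from 9.28, 10.3 and 9.35 FPKM in Chow to 12.99, 10.5 and 13.8 FPKM in HFpEF. The second HFpEF value lay just above the Chow range, and the log2 fold change was 0.35 (SE 0.13, adjusted p = 0.183, limma). Of the Csf1r exon bases, 15.1% are shared with Hmgxb3 on the opposite strand, and whether reads were counted by strand is not given in the sources used here.

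Genes of macrophage identity were all highest in HFpEF replicate 3 (30.5% of all genes), and 4 of the 9 separated the groups (15.6% of all genes). Lyz2, lysozyme M, was the most abundant member at 147, 141 and 110 FPKM in Chow and 139, 179 and 534 FPKM in HFpEF. HFpEF replicate 1 lay within the Chow range, while replicate 3 stood 2.02 above the Chow mean on the log2(FPKM + 0.1) scale. The log2 fold change of Lyz2 was 0.85 (SE 0.49, adjusted p = 0.328, limma), and it was 0.26 without HFpEF replicate 3. The near copy Lyz1 had 0.135 to 0.982 FPKM in Chow and 0.615 to 2.15 FPKM in HFpEF. Adgre1, which encodes the F4/80 antigen, showed the same order, with 6.94, 6.16 and 4.78 FPKM in Chow and 5.73, 9.81 and 25.8 FPKM in HFpEF (log2 fold change 0.93, SE 0.51, and 0.34 without HFpEF replicate 3). Spi1, the PU.1 gene, did not overlap between groups, at 3.26, 2.62 and 2.06 FPKM in Chow and 3.86, 3.59 and 9.37 FPKM in HFpEF (log2 fold change 0.94, SE 0.38, adjusted p = 0.210, limma, and 0.50 without HFpEF replicate 3). Cd68, a glycoprotein of late endosomes and lysosomes, was likewise separate at 6.42, 5.63 and 4.41 FPKM against 7.35, 8.03 and 12.2 FPKM (log2 fold change 0.71, adjusted p = 0.155, limma).

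Among these genes Ctss had the widest spread. It encodes cathepsin S, the lysosomal protease that trims the invariant chain for antigen presentation. Ctss measured 11.01, 11.2 and 10.1 FPKM in Chow and 12.6, 17.7 and 100 FPKM in HFpEF, the last from 2634 reads against 166 to 213 per Chow library. All 3 HFpEF values lay above Chow, but replicate 3 stood far above the other two, and the log2 fold change of 1.38 had an SE of 0.73 (adjusted p = 0.296, limma) and was 0.46 without that library. Pld4, an exonuclease of endolysosomes, went from 2.65 to 4.24 FPKM in Chow to 4.00, 6.48 and 13.2 FPKM in HFpEF (log2 fold change 1.00, adjusted p = 0.219, limma, and 0.55 without HFpEF replicate 3). Laptm5, a lysosomal membrane protein of blood cells, measured 5.50 to 8.41 FPKM in Chow and 8.14, 10.4 and 23.1 FPKM in HFpEF. The lower-abundance genes Aif1, which encodes the actin-binding protein IBA1, and Ly86, which encodes the MD-1 partner of the receptor RP105, lay at 0.683 to 1.38 FPKM in Chow and at 0.994 to 4.36 FPKM in HFpEF. Aif1 separated the groups and Ly86 did not. The 9 identity genes had a median log2 fold change of 0.85, and 0.39 without HFpEF replicate 3.

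Fc receptors bind antibody-coated targets, and the activating ones signal through Fcer1g, a small adaptor with tyrosine motifs. Tyrobp (DAP12) is a similar adaptor that serves other receptors such as Trem2. The low-affinity receptor Fcgr3 measured 7.81, 6.77 and 6.38 FPKM in Chow and 8.40, 12.1 and 18.4 FPKM in HFpEF, without overlap (log2 fold change 0.81, SE 0.28, adjusted p = 0.166, limma, and 0.53 without HFpEF replicate 3). The high-affinity receptor Fcgr1 overlapped, at 1.41, 0.955 and 0.926 FPKM against 1.20, 2.33 and 5.70 FPKM, where HFpEF replicate 1 sat inside the Chow range. Both adaptors overlapped between groups. Fcer1g had 9.0, 7.80 and 8.04 FPKM in Chow and 8.68, 12.6 and 23.2 FPKM in HFpEF (log2 fold change 0.71, and 0.33 without HFpEF replicate 3). Tyrobp had 12.3, 11.5 and 9.05 FPKM in Chow and 10.5, 10.97 and 26.6 FPKM in HFpEF, so that replicates 1 and 2 lay within the Chow range. Its log2 fold change was 0.42 (SE 0.36, adjusted p = 0.504, limma) with all libraries and -0.02 without HFpEF replicate 3, so no direction can be given for it.

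Receptors for microbial products and other ligands were mostly low in abundance and highest in HFpEF replicate 3. Ms4a7, a tetraspanning membrane protein of macrophages and microglia, measured 0.820, 0.536 and 0.724 FPKM in Chow and 0.568, 1.48 and 9.58 FPKM in HFpEF. One HFpEF heart was thus within the Chow range and another stood 3.62 above the Chow mean on the log2(FPKM + 0.1) scale, which left the log2 fold change of 1.47 with an SE of 0.91 (adjusted p = 0.356, limma). Without HFpEF replicate 3 it was 0.39. Its relative Ms4a6c spanned 0.748 to 1.49 FPKM in Chow and 0.881, 1.70 and 4.50 FPKM in HFpEF, although 53.1% of its exon bases are shared with BE692007 on the opposite strand. Cd14, the co-receptor for lipopolysaccharide, measured 4.78, 5.48 and 5.26 FPKM in Chow and 5.56, 7.02 and 20.4 FPKM in HFpEF. The scavenger receptor gene Msr1 behaved alike at 0.482 to 0.587 FPKM against 0.626, 0.744 and 2.10 FPKM, and both genes separated the groups by a small margin in replicate 1. Siglec1, the sialic acid receptor CD169, overlapped at 0.905 to 1.36 FPKM in Chow and 1.153, 1.98 and 2.78 FPKM in HFpEF.

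For the clearance of dying cells, the ligand gave a clearer separation than the receptor. Gas6, which tethers phosphatidylserine on dying cells to MERTK and AXL and is also made by stromal cells, measured 75.2, 72.7 and 76.0 FPKM in Chow and 113, 101 and 146 FPKM in HFpEF. The Chow values lay close together (SD 1.68 FPKM, n = 3), and every HFpEF value lay well above them. The log2 fold change was 0.66 (SE 0.16, adjusted p = 0.118, limma), and 0.52 without HFpEF replicate 3. Mertk measured 2.80, 3.77 and 3.204 FPKM in Chow and 4.65, 3.42 and 5.83 FPKM in HFpEF, with HFpEF replicate 2 inside the Chow range (log2 fold change 0.47, SE 0.22, and 0.29 without HFpEF replicate 3).

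**Figure D2:**
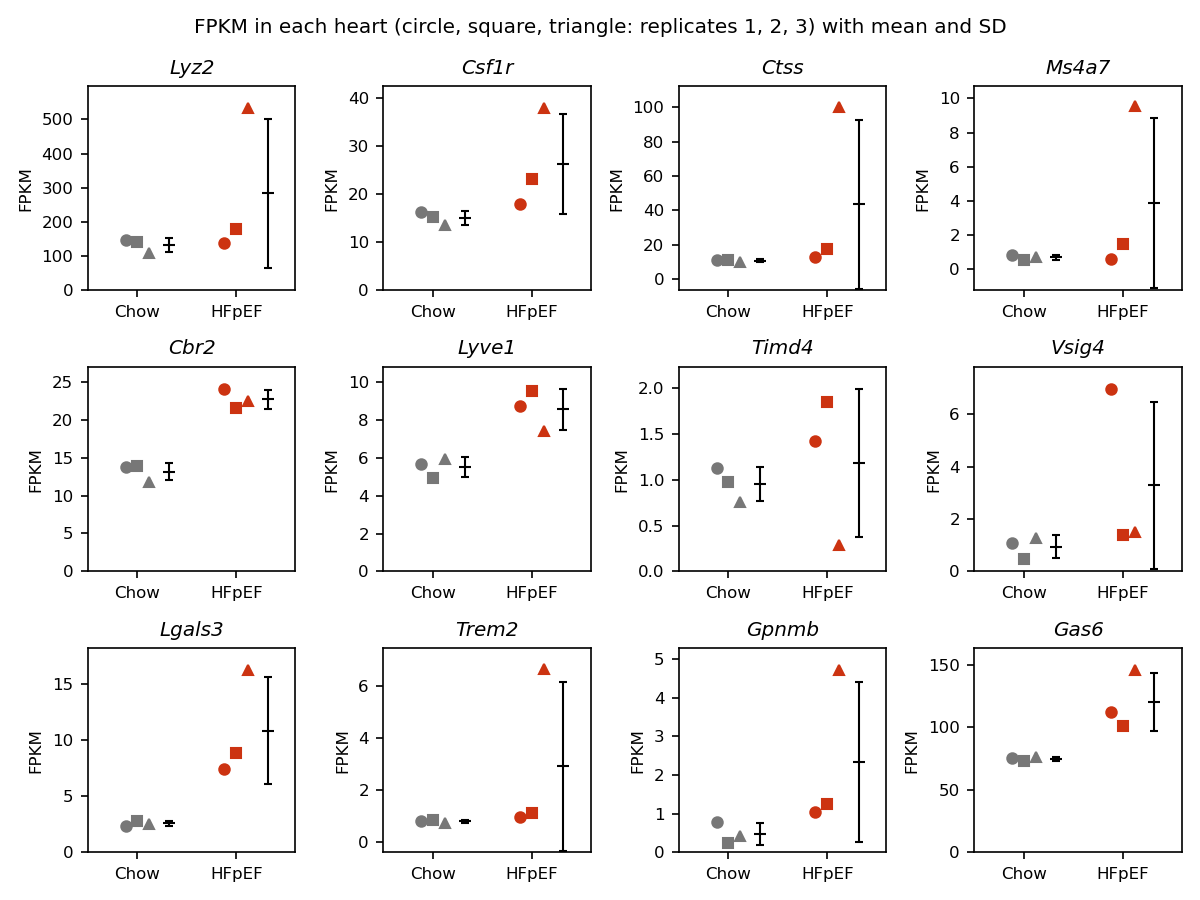
FPKM of 12 genes in each heart, with gray symbols for Chow and red symbols for HFpEF (circle, square and triangle for replicates 1, 2 and 3) and the mean with SD (n = 3) beside them. HFpEF replicate 3 lies far above the other hearts for Lyz2, Ctss, Ms4a7, Trem2 and Gpnmb, whereas all HFpEF values lie in a narrow range above Chow for Cbr2 and in a wider one for Lyve1, Gas6 and Lgals3, and Timd4 is lowest in HFpEF replicate 3.

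Of the 9 resident macrophage genes, 5 were higher in every HFpEF heart than in any Chow heart (15.6% of all genes). In limma, 4 were higher at an unadjusted p under 0.05 (10.2% of all genes) and 0 had an adjusted p under 0.05. Cbr2, a carbonyl reductase that marks resident tissue macrophages in mice, measured 13.7, 13.9 and 11.8 FPKM in Chow and 24.1, 21.6 and 22.5 FPKM in HFpEF. The Chow mean was 13.1 ± 1.13 (SD, n = 3) and the HFpEF mean was 22.7 ± 1.25 (SD, n = 3), which is a ratio of 1.73. The log2 fold change was 0.79 (95% confidence interval 0.53 to 1.04, adjusted p = 0.0642, limma), the smallest adjusted p among the members, and it ranged from 0.0154 to 0.311 over the alternatives. All listed adipocyte markers except Fabp4 also lay above every Chow heart in every HFpEF heart (15.6% of all genes). The part of adipocytes and other cells in the Cbr2 values was not tested. Lyve1, a receptor for hyaluronan that lymphatic endothelium also carries, measured 5.68, 4.91 and 5.95 FPKM in Chow and 8.71, 9.54 and 7.40 FPKM in HFpEF (log2 fold change 0.62, SE 0.13, adjusted p = 0.107, limma). The 4 markers fixed for lymphatic endothelium summed to 16.0 to 20.4 FPKM in Chow and 19.2 to 20.7 FPKM in HFpEF, but went different ways. Pdpn, which other cells also express, was separate upward at 1.595 to 3.60 FPKM against 5.25 to 10 FPKM. Prox1, the most abundant of the 4 in Chow, was separate downward, at 11.02 to 12.8 FPKM in Chow and 10.1, 8.16 and 4.70 FPKM in HFpEF replicates 1 to 3. Whether Prox1 came from lymphatic vessels alone was not tested. Flt4 overlapped and Ccl21a was near 0. The part of lymphatic vessels in the Lyve1 values was not tested.

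Scavenger receptor genes of resident cells split into those that followed HFpEF replicate 3 and those that did not. Cd163, the receptor for haemoglobin bound to haptoglobin, measured 6.20, 6.07 and 5.65 FPKM in Chow and 6.82, 10.1 and 8.06 FPKM in HFpEF (log2 fold change 0.45, SE 0.16, adjusted p = 0.169, limma). Replicate 2 was its highest library. Stab1, a clearance receptor, measured 13.5, 12.3 and 13.8 FPKM in Chow and 16.5, 18.9 and 27.9 FPKM in HFpEF (log2 fold change 0.63, SE 0.20, adjusted p = 0.153, limma, and 0.42 without HFpEF replicate 3). Mrc1, the mannose receptor CD206, measured 9.69, 9.75 and 7.29 FPKM in Chow and 9.67, 13.8 and 24.2 FPKM in HFpEF (log2 fold change 0.74, SE 0.33, and 0.38 without HFpEF replicate 3). Stab1 and Mrc1 were thus both highest in replicate 3, but the groups overlapped for Mrc1 alone. F13a1, the A chain of coagulation factor XIII, overlapped as well, at 9.44 to 12.98 FPKM in Chow and 12.4, 13.6 and 17.8 FPKM in HFpEF. Folr2, a folate receptor, measured 1.77, 2.10 and 1.18 FPKM in Chow and 2.62, 3.02 and 1.71 FPKM in HFpEF, from 22 to 79 reads per library, and 63.1% of its exon bases are shared with an antisense gene, Gm10602.

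The resident genes Timd4 and Vsig4 were low in abundance and had the largest standard errors of that group. Timd4, a phosphatidylserine receptor of self-renewing macrophages, measured 1.13, 0.980 and 0.761 FPKM in Chow and 1.43, 1.85 and 0.286 FPKM in HFpEF. Replicates 1 and 2 thus lay above all Chow hearts and replicate 3, with 12 reads, lay below them. The log2 fold change was 0.00 (SE 0.61, adjusted p = 1.0, limma), 0.72 without HFpEF replicate 3 and -0.45 without HFpEF replicate 2, and its sign changed with the scaling, being -0.11 after quantile normalization. Vsig4, the complement receptor CRIg, measured 1.09, 0.459 and 1.28 FPKM in Chow and 6.96, 1.39 and 1.5 FPKM in HFpEF. Here replicate 1, with 143 reads, stood apart while the others lay just above the highest Chow value at 35 and 43 reads, and the log2 fold change of 1.40 had an SE of 0.67 (adjusted p = 0.259, limma). Retnla, which encodes the secreted protein RELM-alpha of alternative activation, overlapped between groups at 3.75, 10.4 and 9.80 FPKM in Chow and 7.96, 16.0 and 8.30 FPKM in HFpEF (log2 fold change 0.48, SE 0.45).

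The contrast between the pan-macrophage and resident genes can be read within each library. The median log2 ratio to the Chow mean over the 22 pan-macrophage genes was 0.20, 0.58 and 1.73 in HFpEF replicates 1, 2 and 3. Over the 9 resident genes it was 0.54, 0.71 and 0.62, and over all genes tested it lay between -0.02 and -0.01. Resident genes minus pan-macrophage genes, as a difference of mean log2(FPKM + 0.1), gave 0.03, -0.05 and 0.04 in the Chow libraries. In HFpEF this difference was 0.52 in replicate 1, 0.12 in replicate 2 and -1.26 in replicate 3. Relative to pan-macrophage genes the resident genes were thus higher than in any Chow heart in HFpEF replicates 1 and 2 and lower in replicate 3, the library with the high collagen values. The margin was small in replicate 2. In replicate 1 it rested in part on Vsig4 (143 reads, 8 to 23 in Chow). Its log2 ratio to the Chow mean was 2.86 there, and the next highest resident gene was Cbr2 at 0.87. Across the groups the median log2 fold change was 0.82 for pan-macrophage genes (0.37 without HFpEF replicate 3) and 0.62 for resident genes (0.72 without HFpEF replicate 3).

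**Figure D3:**
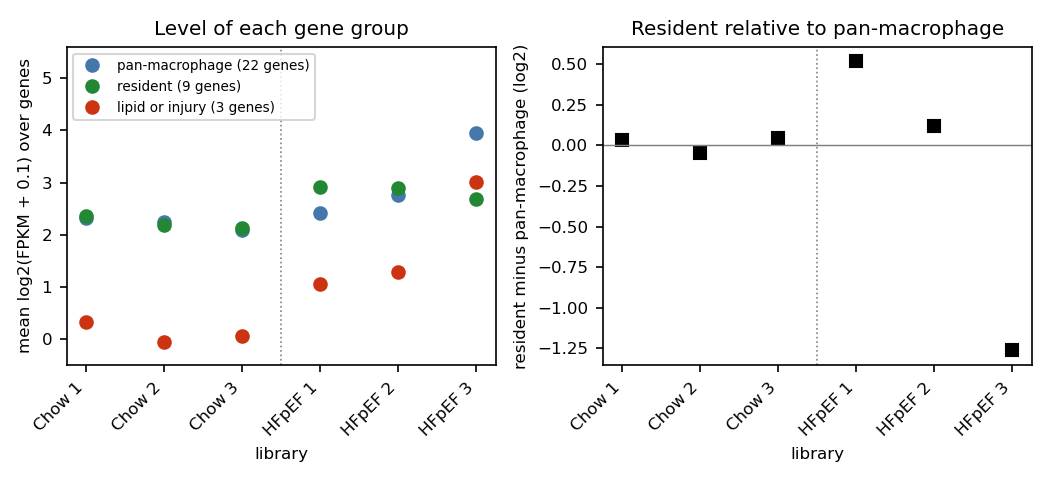
Left, mean log2(FPKM + 0.1) over the pan-macrophage (blue, 22 genes), resident (green, 9 genes) and lipid or injury (red, 3 genes) members in each library. Right, the resident mean minus the pan-macrophage mean, which lies near 0 in the 3 Chow hearts, at 0.52 and 0.12 in HFpEF replicates 1 and 2 and at -1.26 in HFpEF replicate 3.

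The lipid or injury genes had the highest median fold change of the groups. Lgals3, which encodes the galactoside-binding protein galectin-3, measured 2.38, 2.80 and 2.58 FPKM in Chow and 7.42, 8.86 and 16.3 FPKM in HFpEF. The means were 2.59 ± 0.208 (SD, n = 3) and 10.9 ± 4.76 (SD, n = 3), a ratio of 4.20, and the lowest HFpEF heart stood well above the highest Chow heart. The log2 fold change was 1.95 (95% confidence interval 1.26 to 2.63, adjusted p = 0.0757, limma), the highest of the 35, and its adjusted p ranged from 0.0102 to 0.328 over the alternatives. The part of cells other than macrophages in the Lgals3 values was not tested. Gpnmb, a transmembrane glycoprotein of lysosome-rich macrophages, measured 0.787, 0.236 and 0.419 FPKM in Chow and 1.05, 1.25 and 4.72 FPKM in HFpEF (log2 fold change 1.87, SE 0.63, adjusted p = 0.165, limma, and 1.22 without HFpEF replicate 3). Trem2, the lipid-sensing receptor that signals through the Tyrobp adaptor, measured 0.809, 0.827 and 0.702 FPKM in Chow and 0.934, 1.10 and 6.67 FPKM in HFpEF. All 3 genes separated the groups (15.6% of all genes), but Trem2 did so narrowly outside replicate 3. Its log2 fold change of 1.21 (SE 0.70, adjusted p = 0.328, limma) was 0.34 without HFpEF replicate 3. The median of the 3 was 1.87 with all libraries, 1.22 without HFpEF replicate 3 and 1.02 with a pseudocount of 1.

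**Figure D4:**
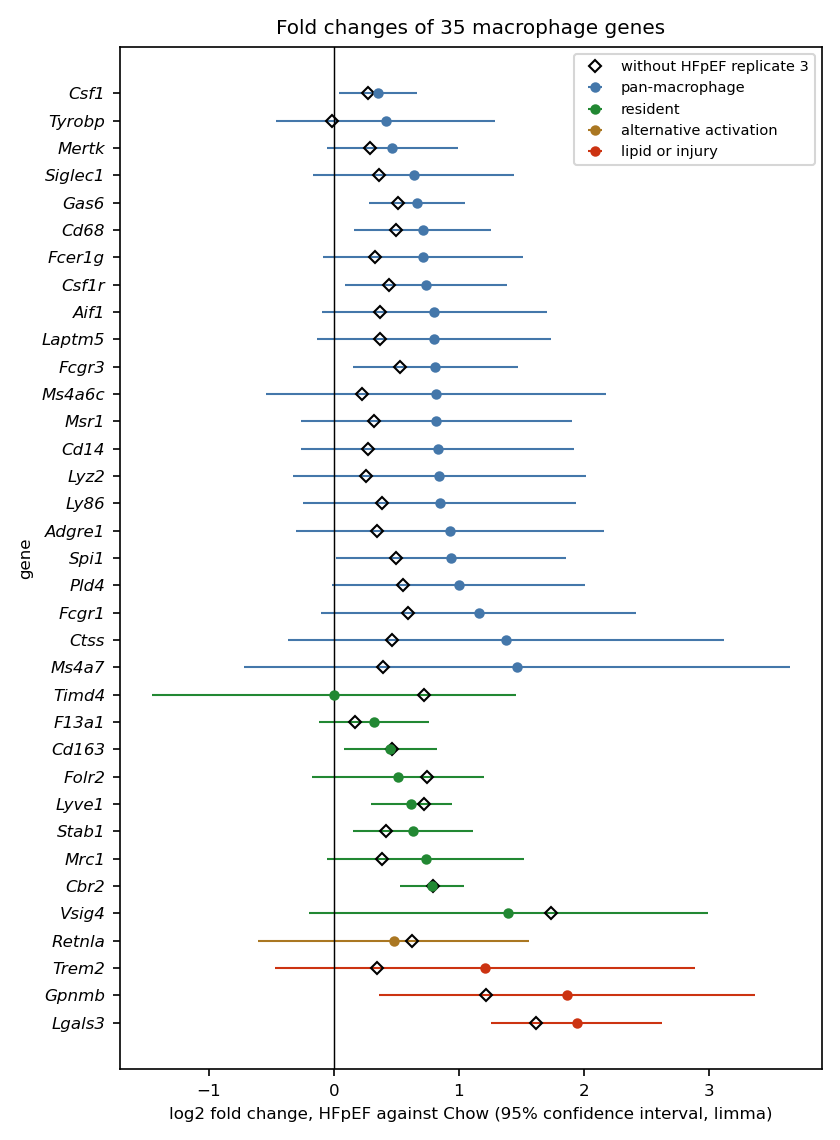
Log2 fold change (HFpEF against Chow, limma) of the 35 genes with 95% confidence intervals as bars, coloured by group, and open diamonds for the fit without HFpEF replicate 3. Intervals of most pan-macrophage genes are wide and their diamonds lie to the left of the points, whereas Cbr2, Lyve1 and Cd163 have narrow intervals and diamonds at or to the right of them. Timd4 lies at 0.00 and Tyrobp at 0.42, and the sign of both changes when a library is left out.

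A wider list of 85 macrophage genes that are not members was measured beside the members. Of the 73 that were tested, 0 passed the adjusted threshold in limma and in voom, 27 were higher at an unadjusted p under 0.05 and 2 were lower, Lpl and Cd36 (10.2% and 13.1% of all genes). In 32 every HFpEF library lay above every Chow library and in 4 every one lay below (15.6% and 19.7% of all genes). Without HFpEF replicate 3, 5 passed the adjusted threshold as higher (Alox5ap, Maf, Cebpa, Axl and Cd9) and 3 as lower (Lpl, Cd36 and Plin2), against 2.85% and 5.36% of all genes, and the median log2 fold change of the 73 was 0.35 in place of 0.79. The 38 other pan-macrophage genes all had their highest value in HFpEF replicate 3 (30.5% of all genes). Among them the complement gene C1qa measured 39.7, 50.4 and 39.0 FPKM in Chow and 47.3, 61.5 and 133 FPKM in HFpEF, its partner C1qb ran from 35.4 to 47.0 FPKM in Chow and from 39.7 to 134 FPKM in HFpEF, and the NADPH oxidase subunit gene Cyba overlapped at 26.3 to 31.9 FPKM against 25.0 to 60.4 FPKM.

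Among transcription factors of the lineage, most were higher in HFpEF in the values. Cebpa, a factor of myeloid cells that adipocytes also use, measured 5.22, 4.56 and 4.49 FPKM in Chow and 10.1, 13.5 and 19.9 FPKM in HFpEF (log2 fold change 1.53, SE 0.24, adjusted p = 0.0819, limma). Its relative Cebpb overlapped between groups, at 15.4 to 26.7 FPKM against 17.4 to 39.7 FPKM. Of the 9 factors tested, 6 were higher at an unadjusted p under 0.05 (10.2% of all genes). In the receptor family of MERTK, Axl measured 23.6, 23.4 and 20.4 FPKM in Chow and 34.9, 31.6 and 54.2 FPKM in HFpEF (log2 fold change 0.80, adjusted p = 0.123, limma). The ligand gene Pros1, protein S, was separate at 7.73 to 8.84 FPKM against 10.3 to 19.7 FPKM, and Mfge8, another bridging protein, overlapped at 26.1 to 26.8 FPKM against 23.8 to 34.9 FPKM.

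Monocyte genes were scarce, with 3 of 9 tested. Ccr2, the receptor through which monocytes are recruited, measured 1.80, 1.43 and 0.746 FPKM in Chow and 1.94, 2.00 and 5.97 FPKM in HFpEF, just clear of the Chow range in replicates 1 and 2 (log2 fold change 1.14, SE 0.50, adjusted p = 0.233, limma, and 0.62 without HFpEF replicate 3). Gngt2, a G protein subunit gene, overlapped at 2.41 to 2.84 FPKM against 1.92 to 4.44 FPKM. Plac8 ranged from 0.156 to 0.803 FPKM in Chow and from 0.136 to 8.75 FPKM in HFpEF. Among 8 other resident genes tested, Pf4, a chemokine, was separate at 15.6 to 19.2 FPKM against 20.8 to 31.9 FPKM, while Slco2b1, a transporter, and Mgl2, a lectin, overlapped with log2 fold changes of 0.15 and -0.08, which were 0.30 and 0.17 without HFpEF replicate 3. The 10 other lipid-associated genes had a median log2 fold change of 0.05 (-0.07 without HFpEF replicate 3), with 5 positive. Here Cd36, a fatty acid transporter, lay at 438 to 459 FPKM in Chow and 249 to 343 FPKM in HFpEF, and Lpl, lipoprotein lipase, at 411 to 437 FPKM and 200 to 333 FPKM, each without overlap (adjusted p = 0.145 and 0.165, limma). Cardiomyocytes and endothelial cells also make both, and the 5 ventricular cardiomyocyte markers summed to 9984 to 10660 FPKM in Chow and 4536 to 7058 FPKM in HFpEF. The lysosomal protease gene Ctsd was separate in the same direction at 218 to 234 FPKM against 178 to 199 FPKM.

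Other cell types were measured beside these genes. Summed B cell markers were 89.8 FPKM in HFpEF replicate 2 against 6.12 to 14.9 FPKM in the others. Mast cell markers summed to 6.49 to 9.07 FPKM in Chow and 10.8 to 15.0 FPKM in HFpEF, dendritic cell markers to 5.13 to 5.44 FPKM and 5.16 to 5.97 FPKM, and T and NK cell markers to 1.23 to 2.48 FPKM and 2.22 to 4.53 FPKM. Summed endothelial markers were lower in HFpEF, at 153 to 160 FPKM against 193 to 213 FPKM. Of the 5 markers, 3 were separate downward (19.7% of all genes). Egfl7 overlapped, as did Pecam1 at 32.45 to 36.4 FPKM in Chow and 32.1 to 33.7 FPKM in HFpEF. HFpEF replicate 3, highest in the pan-macrophage genes, was also the highest library for all 6 fibroblast markers (30.5% of all genes). The margin was wide for Col1a1 (24.9 to 27.2 FPKM in Chow and 54.0, 87.2 and 2252 FPKM in HFpEF) and Col3a1 and small for Pdgfra, Dcn and Tcf21. The part of fibroblast content in the macrophage values was not tested.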

How the data were processed

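The authors sequenced mRNA libraries from left ventricular myocardium, used HISAT2 for alignment (build GRCm38 or mm10 per the labels) and featureCounts for gene counts, and deposited FPKM for each library. Deposited FPKM times the union exon length of GENCODE M21 gave whole reads (relative tolerance 1e-06) for 96.1% to 96.2% of values, but not for Csf1r and Cd14, for which no read numbers are given. Libraries were rescaled by median of ratios (factors 1.003 to 1.006), 0.1 was added, and log2 values of the 14225 genes with at least 0.5 FPKM in at least 3 libraries were fitted with limma 3.58.1 in R 4.3.3 (lmFit and eBayes, with its trend and robust settings). The fold changes are on the log2(FPKM + 0.1) scale, which understates changes of low genes. P-values were adjusted by Benjamini-Hochberg over all genes tested. The study's own tool needs counts, so limma was used on FPKM. The fit was tested on simulated data. Other software was Python 3.11.15 with pandas 2.3.3, numpy 2.4.6 and matplotlib 3.10.9.

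The members, the wider list and the marker lists were chosen with earlier results of these data known. All members were to be named, with the 3 most abundant genes of each role of the wider list, and the 2 most abundant of each marker list where a result touched them. Other genes are named because of their values. One result that this rule would name is not reported here. Alternatives were 3 scalings, pseudocounts of 1 and 0.01, no filter or a minimum of 1 FPKM, eBayes without its options, the replicate number as a block, voom on recovered reads, and leaving out each library. FPKM as deposited was among the scalings, and the small median of ratios factors left it almost equal to the main fit. Exon sharing was read from GENCODE M21, and promoters from RefSeq (GRCm38.p6). Proteomic and other assays of the study were not analysed here.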

Additional observations from a re-analysis of the deposited data

How the results depend on the processing

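Across the alternatives, 557 values of single members were recomputed, of which 545 kept their direction and their side of the threshold, 5 passed the threshold newly and 7, from 2 genes, changed sign. Scaling to non-mitochondrial reads moved the median of all genes to 0.13. It gave 1 member with an adjusted p under 0.05 (Cbr2, 0.0358, limma), where 0.337% of all genes passed. It also gave 19 members higher at an unadjusted p under 0.05 (18.7% of all genes) and a resident median of 0.77. Leaving out 1 library at a time gave 0 to 4 members with an adjusted p under 0.05, where 0.0141% to 8.22% of all genes passed. The 4 came from the fit without HFpEF replicate 3, in which 8.22% of all genes passed. Members higher at an unadjusted p under 0.05 were 5 to 24 (6.19% to 11% of all genes), and the resident median was 0.54 to 0.72. The cause was not tested. A pseudocount of 1 lowered the lipid or injury median from 1.87 to 1.02. Under the other settings 11 to 13 members were higher (7.05% to 11% of all genes) and 0 passed the adjusted threshold (0% to 0.225% of all genes). In every setting 0 members were lower at an unadjusted p under 0.05, where 6.51% to 14.8% of all genes were. The log2 fold change of Timd4 was -0.11 after quantile normalization, -0.048 with a pseudocount of 0.01 and -0.12 with voom, and from -0.45 to 0.72 with 1 library left out. That of Tyrobp ran from -0.017 to 0.65 with 1 library left out. Over all genes, 14 passed the adjusted threshold, against 0 with voom, 2 with the replicate block and 1169 without HFpEF replicate 3. Replicate numbers did not pair the libraries (correlations of same-numbered deviations -0.041, -0.073 and -0.057). With the replicate block 13 members were higher (9.17% of all genes) and 0 passed the adjusted threshold (0.0141% of all genes). With 3 mice a group and wide spread in HFpEF, differences of the size of most members could not be called here. Recovered reads of Timd4, Vsig4, Folr2 and Aif1 were under 150 in every library. Several other members also had few reads in Chow, such as Gpnmb with 18 to 73 per library.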

Other observations

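Genes below the expression limit of the test added values from the wider macrophage list, named here after their values were seen. Spp1, which encodes osteopontin and is made by injury macrophages as well as by other cells, measured 0.0426, 0.103 and 0.0502 FPKM in Chow replicates 1 to 3 and 0.351, 0.609 and 17.4 FPKM in HFpEF replicates 1 to 3. All HFpEF hearts lay above all Chow hearts, with replicate 3 far above the rest. Cd5l, a secreted protein gene of macrophages, was listed at 0, 0.0419 and 0.122 FPKM in Chow and at 0.0709, 0.899 and 1.73 FPKM in HFpEF, with replicate 1 inside the Chow range. Mmp12, a macrophage elastase, overlapped at 0.0800 to 0.236 FPKM against 0.114 to 0.240 FPKM.

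Cd9, a tetraspanin found on lipid-associated macrophages and on many other cells, measured 13.5, 13.01 and 9.59 FPKM in Chow and 27.9, 21.2 and 29.5 FPKM in HFpEF (log2 fold change 1.11, adjusted p = 0.0845, limma). Alox5ap, which presents arachidonic acid for leukotriene synthesis, measured 2.92, 3.06 and 2.97 FPKM in Chow and 4.12, 5.49 and 9.30 FPKM in HFpEF (log2 fold change 0.97, adjusted p = 0.136, limma). Neither overlapped between groups. Il34, the second ligand of CSF1R, did overlap, at 1.65 to 2.83 FPKM in Chow and 2.26 to 3.91 FPKM in HFpEF.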
